A study of Mus musculus with 24 samples.

Results

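Thioredoxin, peroxiredoxin and superoxide enzymes were followed in the liver of mice on a methionine-restricted diet, with and without the transcription factor NRF2 in hepatocytes. The set holds 10 of the 15160 genes counted and was chosen by gene name: Txn1, Txnrd1, Srxn1, Prdx1, Prdx5, Prdx6, Sod1, Sod2, Cat and Gpx1. All 10 passed the filter on low counts, with at least 262 counts in every mouse, and 13336 genes were tested in all. The mice were male and were fed from 8 weeks of age for 8 weeks and fasted for 4 h before the liver was taken. The labels give their age as 5 months, which is older than these feeding times alone would give. In the study's experiment with 8 weeks of diet, calorimetry and a further stay in home cages came before the liver was taken. The Con diet held 0.86% methionine and the MR (methionine-restricted) diet 0.17%, both made of elemental amino acids and both, by the study's methods, without cysteine. WT mice carried floxed Nfe2l2 alleles, the gene of NRF2, without Cre (labelled NRF2fl/fl), so that the floxed allele was shared by all groups. NRF2 KO mice (labelled NRF2fl/(alb)) also carried Cre under the albumin promoter, which removes exon 5 in hepatocytes. The study holds that the Nfe2l2 mRNA left in these livers most likely comes from macrophages. Which other liver cells keep an intact gene was not measured here. Each genotype was fed each diet, with 6 mice and 1 library per mouse in each of the 4 groups (WT Con and WT MR, and NRF2 KO on Con or MR). Comparisons are given without the mice WT_CON_7604 and WT_MR_7612, which the study left out as outliers, leaving 5 WT and 6 NRF2 KO mice on each diet.

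Superoxide is turned into hydrogen peroxide by the superoxide dismutases, Sod1 in the cytosol and Sod2 in mitochondria. Hydrogen peroxide is then removed by catalase (Cat) in peroxisomes, by glutathione peroxidase 1 (Gpx1), a selenoprotein that uses glutathione, and by the peroxiredoxins, which most often draw their electrons from thioredoxin (Txn1). Thioredoxin is recharged from NADPH by the selenoprotein thioredoxin reductase 1 (Txnrd1), and a peroxiredoxin whose cysteine has been oxidized too far is repaired by sulfiredoxin (Srxn1). NRF2 is a transcription factor that is held down by Keap1 and released by electrophiles and oxidants. It binds the antioxidant response element, and Txnrd1, Srxn1 and Prdx1 are among its known target genes, whereas Cat is best known in liver as a peroxisomal enzyme. Methionine is the source of cysteine, and so of glutathione, when the diet holds no cysteine.

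Promoter sequences are shown for the 4 members that were called with no overlap between groups in at least 1 comparison, because NRF2 acts through DNA near gene starts. They are RefSeq promoters of build GRCm38.p6, 250 bases before to 50 after an annotated start, and 9 of the 10 members have at least 1, Prdx6 being the member without an entry. Capitals mark matches, on either strand, to the core of the antioxidant response element, TGACNNNGC, or to the AP-1 element, TGACTCA, a motif added after these promoters had been seen. The core can contain the AP-1 letters, and the marked matches then overlap. Each line is read 5′ to 3′ on the strand of the gene, so a motif on the other strand appears reversed and complemented.
Txnrd1, chr10:82858956-82859255, plus strand: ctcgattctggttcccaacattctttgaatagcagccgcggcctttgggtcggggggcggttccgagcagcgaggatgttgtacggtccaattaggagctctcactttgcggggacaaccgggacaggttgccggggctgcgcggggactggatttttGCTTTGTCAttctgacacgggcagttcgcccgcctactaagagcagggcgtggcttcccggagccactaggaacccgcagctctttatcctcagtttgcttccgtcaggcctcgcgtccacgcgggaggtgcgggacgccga
Srxn1, chr2:152105274-152105573, plus strand: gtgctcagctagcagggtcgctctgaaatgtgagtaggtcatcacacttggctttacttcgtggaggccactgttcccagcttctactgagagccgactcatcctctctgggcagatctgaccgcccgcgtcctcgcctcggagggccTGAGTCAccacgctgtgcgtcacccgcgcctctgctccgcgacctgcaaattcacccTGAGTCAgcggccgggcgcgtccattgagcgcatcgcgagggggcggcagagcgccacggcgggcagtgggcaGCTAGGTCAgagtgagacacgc
Prdx1, chr4:116685349-116685648, plus strand: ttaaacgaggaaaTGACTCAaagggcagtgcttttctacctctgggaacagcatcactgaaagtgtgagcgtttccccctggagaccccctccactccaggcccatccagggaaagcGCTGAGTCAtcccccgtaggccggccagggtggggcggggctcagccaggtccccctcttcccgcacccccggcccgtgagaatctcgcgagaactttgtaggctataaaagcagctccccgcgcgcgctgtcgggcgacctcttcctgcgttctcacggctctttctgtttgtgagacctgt
Cat, chr2:103485104-103485403, minus strand: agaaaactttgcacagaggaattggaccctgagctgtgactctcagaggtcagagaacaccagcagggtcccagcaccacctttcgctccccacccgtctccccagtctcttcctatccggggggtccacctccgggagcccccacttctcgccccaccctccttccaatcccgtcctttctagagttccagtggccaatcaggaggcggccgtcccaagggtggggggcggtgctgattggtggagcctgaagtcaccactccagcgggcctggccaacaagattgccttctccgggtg

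Txnrd1 had 3 annotated promoters, and the 1 shown is the 1 that held the core, read on the minus strand as TGACAAAGC from base -92 to -84 before the start. The Srxn1 promoter held the core just after the start, from 29 to 37, as TGACCTAGC, and 2 copies of the AP-1 element upstream, from -102 to -96 and from -45 to -39. The Prdx1 promoter held the core as TGACTCAGC from -133 to -125, which is also an AP-1 match, and a further AP-1 element from -237 to -231. Sod1 also held the core, from -56 to -48, as TGACCACGC. The promoters of Txn1, Prdx5, Sod2, Cat and Gpx1 did not hold these letters in the window. The core is common, since 12.4% of 32851 promoters and 14.0% of 27025 genes held it, against 5.20% of promoters for the AP-1 element. The element TTGCATCA, a composite site of ATF4 and C/EBP proteins searched in the same way, was in 0.895% of promoters and in no member's. These matches describe sequence and not binding.

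QuantSeq libraries read the 3′ end of each transcript, so 1 transcript gives about 1 read whatever its length, and values are given as CPM, read counts scaled to a common library size after TMM normalization. Depth ran from 6197291 to 22068338 counts over the 22 mice, with a median of 15019791.5. The count of Nfe2l2, taken at the 3′ end, was not lower in NRF2 KO mice and so does not measure the deletion, but it set the genotypes apart: 9 of the 10 WT mice lay between 94.0 and 125 CPM, and NRF2 KO mice between 202 and 339. The library labelled WT_CON_7607 went against its label, with 324 CPM, and the calls are therefore also given without it. Hepatocyte markers summed to between 75205 and 131310 CPM over the 22 mice, as labelled for liver, with all 8 detected, and the mean of the sum was higher in NRF2 KO than in WT on both diets (122540 against 106160 on Con, 104230 against 84705 on MR). Alb made up most of this sum, with a mean of 71952 CPM in WT Con. By genotype edgeR called 0 of the 8 on Con and 1, Apoa1, on MR, where DESeq2 called 0 and 2. On MR the sums did not overlap, the highest in WT being 92517 CPM and the lowest in NRF2 KO 94240. Averaged over diets edgeR called 2 of the 8, both higher in NRF2 KO. In bulk liver, fewer cells of a type and less RNA per cell cannot be told apart. A score of clock genes, the mean standardized log2 CPM of 8 evening genes minus that of 4 morning genes, did not overlap between genotypes within either diet. Its highest value in WT was -1.15 on Con and 0.50 on MR, and its lowest in NRF2 KO was 0.49 and 0.71. The clock score and genotype therefore cannot be told apart in the genotype comparisons. The score also differed by diet in WT, with a mean of -2.32 on Con and -0.30 on MR, against 0.87 and 1.32 in NRF2 KO.

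Txnrd1 and Srxn1 were lower in NRF2 KO than in WT on both diets and Cat on the MR diet, and the other members did not pass the test for genotype. On Con, 2 of the 10 members were called, both lower in NRF2 KO mice, where 2.07% of all genes tested were called and 1.27% were lower. On MR, 3 members were called, all of them lower, where 1.93% of genes were called and 1.38% were lower. In each of these 5 cases every NRF2 KO mouse lay below every WT mouse, which 0.885% of genes showed on Con and 2.91% on MR. Calls are at a Benjamini-Hochberg adjusted p under 0.05 over all genes in edgeR's quasi-likelihood test. Averaged over diets the members called were the same 3, all lower, where 3.24% of genes were lower, although Cat was not called with all 24 mice (-0.305, edgeR adjusted p = 0.0824). The median log2 fold change of the 10 members was -0.06 on Con and -0.19 on MR, against 0.00 for all genes on both diets.

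Methionine restriction moved the members in different directions. In WT, 2 members were called, Txnrd1 and Prdx1, and both rose, where 6.91% of genes rose. In NRF2 KO mice 2 members were called, Prdx5 and Cat, and both fell, where 6.34% of genes fell. The members' median log2 fold change was 0.17 in WT and 0.12 in NRF2 KO, against -0.01 and 0.00 for all genes. Averaged over both genotypes 4 members rose (Txnrd1, Srxn1, Prdx1 and Sod2) and 2 fell (Prdx5 and Prdx6), where 13.3% of genes rose and 14.1% fell. The count of members called within each genotype was near that of the background, since 13.8% of all genes were called for MR in WT and 12.6% in NRF2 KO. Markers of macrophages, stellate cells and bile ducts were lower on MR. The summed hepatocyte markers also had a lower mean on MR, 84705 against 106160 CPM in WT and 104230 against 122540 in NRF2 KO. Of the 8 hepatocyte markers edgeR called 1 lower in WT and 2 in NRF2 KO. Summed Kupffer cell and macrophage markers (11 genes) ran from 508 to 669 CPM in WT Con and from 399 to 449.95 in WT MR, with 7 of 11 called lower, and in NRF2 KO 4 of 11 were called lower. Of the 8 stellate cell markers 5 fell in WT and 4 in NRF2 KO, and of the 5 bile duct markers 4 and 1. In each of the lists of sinusoidal endothelial, red blood cell, neutrophil, T and NK cell and B cell markers, at most 1 gene was called for MR in either genotype by edgeR, and summed endothelial markers (8 genes) were not lower on MR (means of 328 on Con and 342 CPM on MR in WT, 341 and 369 in NRF2 KO, where Kdr rose). Only 3 neutrophil markers were tested, of which edgeR called 1 lower for MR in WT and DESeq2 called 2. Their sum, at a low level, ran from 7.98 to 14.3 CPM in WT Con and from 6.31 to 7.43 in WT MR. In NRF2 KO its mean was 6.79 CPM on Con and 8.09 on MR, and neither tool called a neutrophil marker. By genotype edgeR's test called 0 of the 11 macrophage and 0 of the 8 stellate markers on each diet, as did DESeq2, and at an unadjusted p under 0.05 there were 1 and 1 on Con and 0 and 1 on MR. Of the 5 bile duct markers 1, Spp1, was lower in NRF2 KO on Con (log2 -0.90, edgeR adjusted p = 0.0298) and DESeq2 called 2, and the summed bile duct markers ran from 49.0 to 72.6 CPM in WT Con and from 31.7 to 53.1 in NRF2 KO Con. The part of these markers in the members' differences was not tested.

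**Figure D1:**
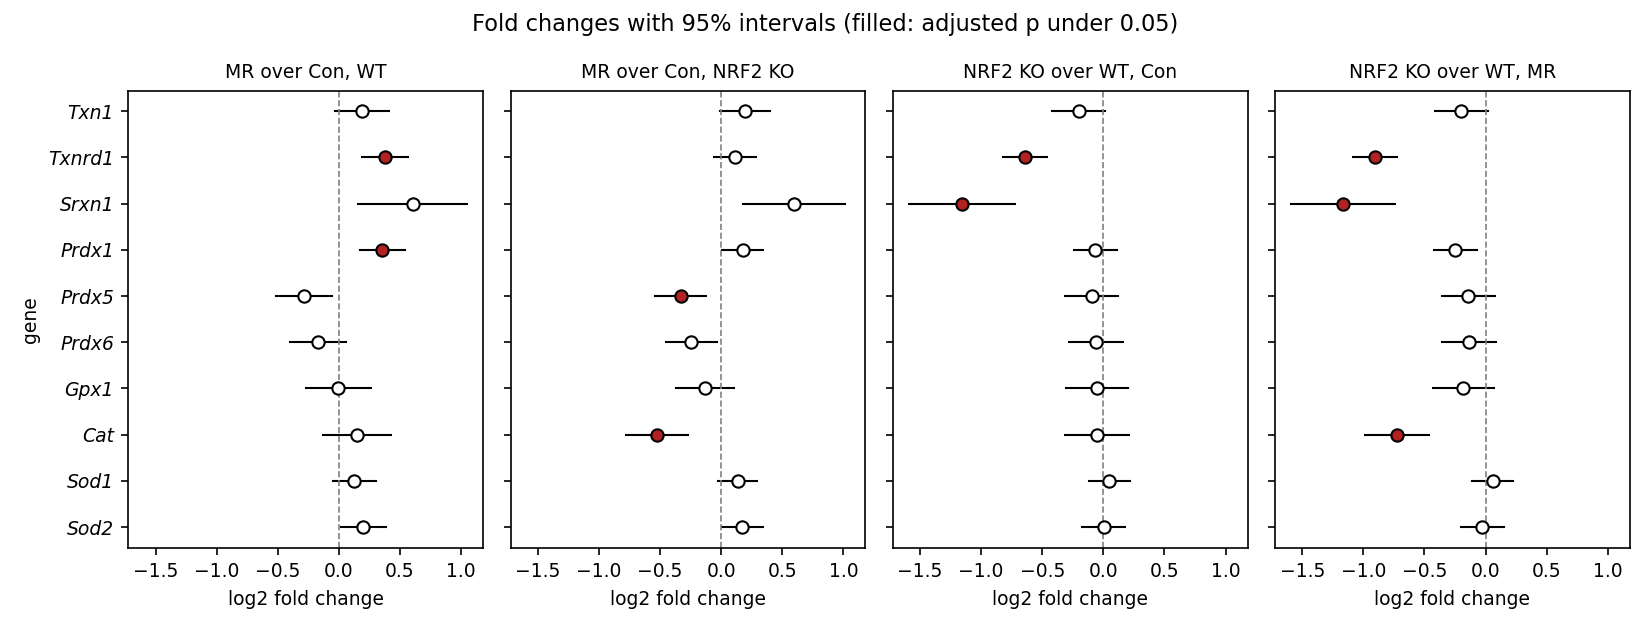
Log2 fold change (x axis) of each member (y axis) with its 95% interval in 4 comparisons, filled circles marking an adjusted p under 0.05 in edgeR's quasi-likelihood test. KO stands for NRF2 KO. The filled circles are Txnrd1 and Prdx1 for MR in WT, Prdx5 and Cat for MR in NRF2 KO, Txnrd1 and Srxn1 for genotype on Con, and Txnrd1, Srxn1 and Cat for genotype on MR.

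Txnrd1 (ENSMUSG00000020250, GRCm38 chr10:82833951-82897712, plus strand) recharges thioredoxin. Its level was 74.4, 70.3, 72.7, 56.3 and 90.9 CPM in the 5 WT Con mice, and 96.8, 92.2, 105, 83.8 and 95.4 in the 5 WT MR mice. In NRF2 KO mice it ran from 41.7 over a median of 47.0 to 51.2 CPM on Con and from 46.0 over 51.8 to 52.1 on MR. Every NRF2 KO mouse was below every WT mouse, and on Con the nearest WT value was that of the library labelled WT_CON_7607. The mean was 72.9 ± 12.3 (SD, n = 5) in WT Con and 46.8 ± 3.54 (n = 6) in NRF2 KO Con. The log2 difference by genotype was -0.64 on Con (SE 0.09, edgeR adjusted p = 0.000313) and -0.90 on MR (SE 0.09, edgeR adjusted p = 6.21e-07). Without the library labelled WT_CON_7607, whose removal leaves a WT Con range of 70.3 to 90.9 CPM, the difference on Con was -0.72 (edgeR adjusted p = 4.11e-06). MR raised Txnrd1 by 29.9% in WT (log2 0.38, SE 0.09, edgeR adjusted p = 0.00773), with some overlap between the diets, since the highest WT Con mouse exceeded the lowest WT MR mouse. In NRF2 KO the difference was 0.11 (SE 0.08, 95% interval -0.06 to 0.29, edgeR adjusted p = 0.419), and all 12 NRF2 KO mice lay within 41.7 to 52.1 CPM. With the clock score as a covariate the genotype difference was of like size, -0.63 on Con and -0.90 on MR, but passed the test only on MR (edgeR adjusted p = 0.247 and 0.000166), and edgeR called 0 of the 13336 genes by genotype on Con in that fit, 1547 having an unadjusted p under 0.05. The rise of Txnrd1 on MR in WT was not called in that fit.

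Srxn1 (ENSMUSG00000032802, chr2:152105516-152111376, plus strand), which repairs overoxidized peroxiredoxins, had the largest genotype difference of the members on both diets. It was at 59.3, 75.8, 59.2, 38.1 and 90.3 CPM in WT Con and at 105, 83.8, 116, 93.9 and 91.6 in WT MR. NRF2 KO mice ran from 20.7 over a median of 28.9 to 37.8 CPM on Con and from 28.5 over 47.9 to 50.3 on MR. The genotypes did not overlap on either diet, although on Con the highest NRF2 KO mouse (37.8) and the library labelled WT_CON_7607 (38.1) were almost at the same level. The log2 difference was -1.16 on Con (SE 0.21, edgeR adjusted p = 0.00442), which is a level 55.1% lower, and -1.16 on MR (SE 0.20, edgeR adjusted p = 0.00249). Without the library labelled WT_CON_7607 it was -1.29 on Con (edgeR adjusted p = 0.000528). With the clock score as a covariate the differences were -1.12 and -1.15 and neither passed (edgeR adjusted p = 0.323 and 0.0722). The ratio of MR to Con was 1.52 in WT and 1.51 in NRF2 KO, and neither passed in edgeR's test alone (adjusted p = 0.0646 and 0.0544), whereas both passed in DESeq2 (adjusted p = 0.0291 and 0.0185). Averaged over genotypes the rise passed (log2 0.60, SE 0.15, edgeR adjusted p = 0.00451). The interval of the difference between the genotypes in this response was wide, from -0.62 to 0.60 on the log2 scale.

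Txn1 (ENSMUSG00000028367, chr4:57943373-57956411, minus strand), the thioredoxin that Txnrd1 recharges, was not called in any comparison. Its mean was 347 ± 59.8 CPM in WT Con, 395 ± 36.1 in WT MR, 302 ± 41.8 in NRF2 KO Con and 345 ± 21.9 in NRF2 KO MR (SD, n = 5, 5, 6 and 6), and the groups overlapped in each comparison of 1 group with another. By genotype the log2 difference was -0.20 on each diet, with intervals of -0.42 to 0.01 on Con and -0.41 to 0.02 on MR, so that a fall of the size seen for Txnrd1 on Con lay outside both. The rise on MR averaged over genotypes was 0.19 and just missed the threshold (SE 0.07, edgeR adjusted p = 0.0562).

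**Figure D2:**
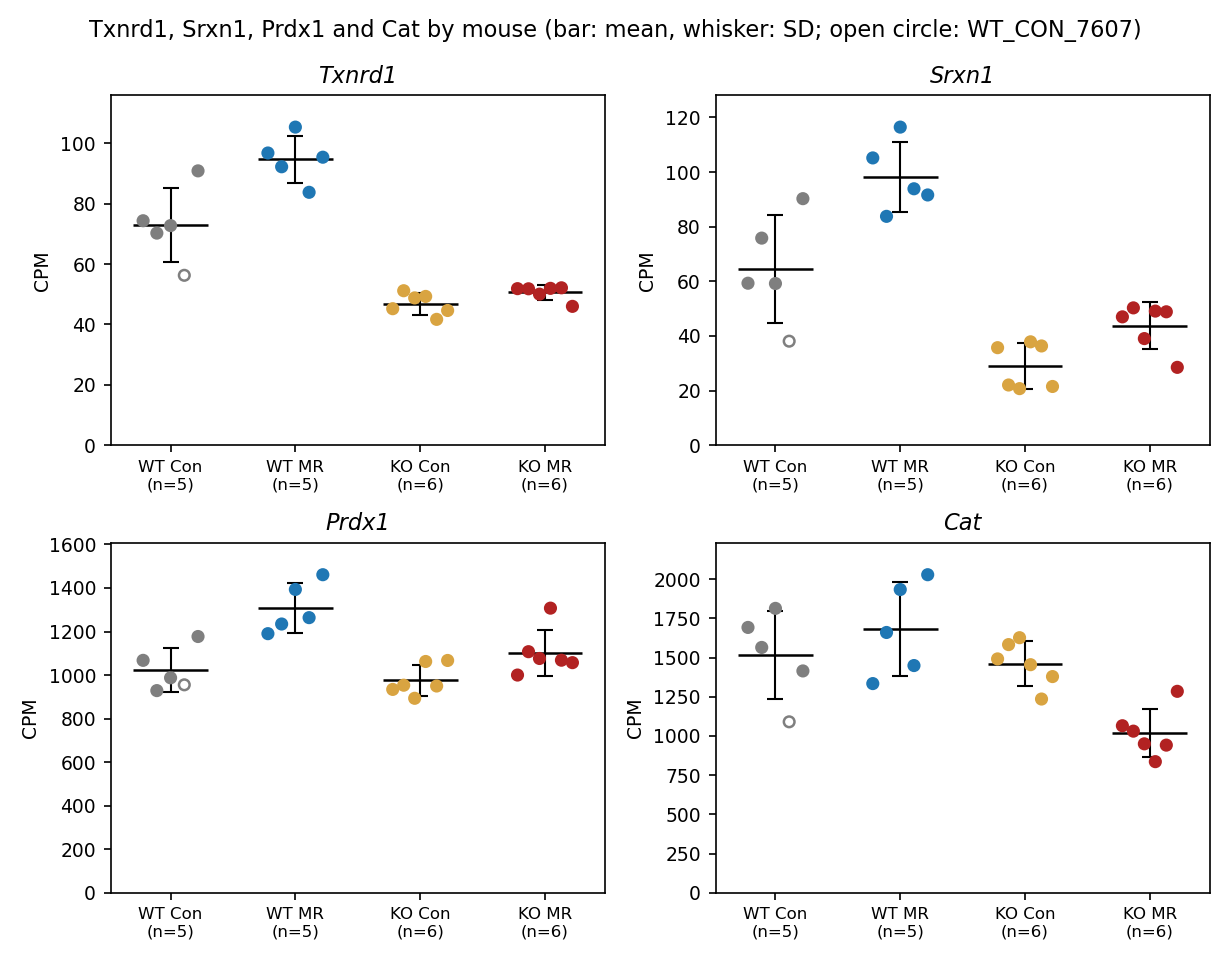
CPM (y axis, from 0) of Txnrd1, Srxn1, Prdx1 and Cat in each mouse, by group (x axis), with the group mean as a bar and the SD as a whisker. KO stands for NRF2 KO, and the open circle is the library labelled WT_CON_7607. All NRF2 KO points of Txnrd1 and Srxn1 lie below all WT points of the same diet, and for Cat this holds on MR, where NRF2 KO mice reach 1284 CPM and WT mice start at 1334.

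Among the peroxiredoxins, Prdx1 rose on MR in WT, and Prdx5 and Prdx6 fell on MR when the genotypes were averaged. Prdx1 (ENSMUSG00000028691, chr4:116685544-116700822, plus strand), a cytosolic enzyme, was at 1068, 929, 987, 955 and 1177 CPM in WT Con and at 1190, 1234, 1393, 1264 and 1461 in WT MR. All 5 WT MR mice were above all 5 WT Con mice, which 5.32% of genes showed in that comparison. The rise was 27.9% (log2 0.35, SE 0.09, edgeR adjusted p = 0.00987). In NRF2 KO mice Prdx1 ran from 893 over a median of 952 to 1067 CPM on Con and from 1000.1 over 1072 to 1307 on MR, and the rise of 0.18 (SE 0.08) did not pass (edgeR adjusted p = 0.163). By genotype Prdx1 did not pass on either diet, the log2 difference being -0.07 on Con (95% interval -0.24 to 0.11) and -0.25 on MR (95% interval -0.42 to -0.07, edgeR adjusted p = 0.145).

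Prdx5 (ENSMUSG00000024953, chr19:6906697-6910106, minus strand), found in mitochondria, peroxisomes and the cytosol, was lower on MR. NRF2 KO mice ran from 202 over 221 to 249.7 CPM on Con and from 164 over 171 to 225 on MR. On MR, 5 of the 6 NRF2 KO mice lay at 176 or lower, below every NRF2 KO Con mouse, and KO_MR_7632 alone overlapped with the Con group. The level fell by 20.5% (log2 -0.33, SE 0.10, edgeR adjusted p = 0.0335), and it lost the call in 8 of the 22 fits that left out 1 mouse (highest edgeR adjusted p = 0.0818). WT mice showed a difference of like size that did not pass, from 261, 249, 292, 193 and 210 CPM on Con to 176, 198, 224, 167 and 222 on MR (log2 -0.29, SE 0.11, edgeR adjusted p = 0.0857). Averaged over genotypes Prdx5 was lower by 19.3% on MR (edgeR adjusted p = 0.00359), and by genotype it did not pass on either diet. Prdx6 (ENSMUSG00000026701, chr1:161240112-161251219, minus strand), the peroxiredoxin that uses glutathione in place of thioredoxin, was at 597 ± 130.2 CPM in WT Con, 532 ± 36.8 in WT MR, 574 ± 66.4 in NRF2 KO Con and 484 ± 16.4 in NRF2 KO MR (SD, n = 5, 5, 6 and 6). It passed only for MR averaged over genotypes, with a log2 fold change of -0.21 (SE 0.08, edgeR adjusted p = 0.0422), a call that 13 of the 22 fits without 1 mouse did not keep.

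Cat (ENSMUSG00000027187, chr2:103453849-103485160, minus strand), the catalase of peroxisomes, fell on MR in NRF2 KO mice and was lower in NRF2 KO than in WT on that diet. It was at 1692, 1564, 1813, 1090 and 1414 CPM in WT Con and at 1334, 1660, 1934, 1449 and 2028 in WT MR. NRF2 KO mice ran from 1235 over a median of 1473 to 1626 CPM on Con and from 836 over 990.05 to 1284 on MR. On Con the genotypes overlapped throughout, whereas on MR every NRF2 KO mouse was below every WT mouse. On MR Cat fell by 30.3% in NRF2 KO (log2 -0.52, SE 0.12, edgeR adjusted p = 0.00691), where only the highest MR mouse overlapped with the Con group. In WT the log2 difference on MR was 0.15 (SE 0.13, 95% interval -0.13 to 0.43, edgeR adjusted p = 0.506), and 0.0554 without the library labelled WT_CON_7607. By genotype Cat was lower by 39.4% on MR (log2 -0.72, SE 0.13, edgeR adjusted p = 0.00159) and did not pass on Con (log2 -0.05, 95% interval -0.32 to 0.21, and -0.15 without that library). With the clock score as a covariate the difference on MR was -0.60 and did not pass (edgeR adjusted p = 0.116), while the fall on MR in NRF2 KO was called in that fit too.

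The difference between the genotypes in the response to MR, tested as an interaction, was called for 0 of the 10 members by edgeR's quasi-likelihood test and also by DESeq2, where 0.0450% of genes were called by edgeR. At an unadjusted p under 0.05 there were 2, Cat and Txnrd1. For Cat the interaction was -0.67 on the log2 scale, with a 95% interval of -1.05 to -0.30, an unadjusted p of 0.00111 and an edgeR adjusted p of 0.296, and without the library labelled WT_CON_7607, which had the lowest Cat of WT Con, it was -0.58. For Txnrd1 it was -0.26 (95% interval -0.52 to -0.01, edgeR adjusted p = 0.641). So neither the rise of Txnrd1 in WT nor the fall of Cat in NRF2 KO was shown to be particular to that genotype after adjustment.

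Gpx1 (ENSMUSG00000063856, chr9:108338903-108340343, plus strand) was not called in any comparison, and its groups overlapped in each comparison of 1 group with another. Its mean was 2856 ± 472 CPM in WT Con, 2846 ± 400.2 in WT MR, 2752 ± 339 in NRF2 KO Con and 2510 ± 372 in NRF2 KO MR (SD, n = 5, 5, 6 and 6). By genotype the 95% interval of the log2 difference was -0.31 to 0.20 on Con and -0.43 to 0.07 on MR, and for MR it was -0.27 to 0.26 in WT.

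Of the dismutases, Sod2 rose slightly on MR and Sod1 was not called. Sod2 (ENSMUSG00000006818, chr17:13006846-13040063, plus strand), the mitochondrial enzyme, was at 210.1 ± 28.2 CPM in WT Con, 241 ± 15.4 in WT MR, 211 ± 22.1 in NRF2 KO Con and 237 ± 14.1 in NRF2 KO MR. The rise averaged over genotypes was 13.8% (log2 0.19, SE 0.06, edgeR adjusted p = 0.0244) and passed in all 22 fits that left out 1 mouse, but not within WT or NRF2 KO alone (edgeR adjusted p = 0.14 and 0.174). By contrast, the study's qPCR gave lower Sod2 on MR in WT, and lower Sod2 in NRF2 KO than in WT on Con. The reason for this disagreement was not tested. The last 300 bases of Sod2 share stretches of at least 95% identity with 7 other genes, 5 of which are listed with counts equal to 18.7% of those of Sod2. The last 300 bases of Prdx1 match 2 pseudogenes, not listed in the counts, at 98.7% and 98.3% identity, so that reads of both members could be shared with other genes. Sod1 (ENSMUSG00000022982, chr16:90220754-90226329, plus strand), the cytosolic copper-zinc enzyme, was at 2488 ± 235, 2713 ± 211, 2575 ± 156 and 2826 ± 219 CPM in WT mice on Con and MR and in NRF2 KO mice on Con and MR. Its 3′ end overlaps Scaf4 on the opposite strand, whose counts over all mice were few in comparison (5181 against 991928). By genotype the 95% interval of the log2 difference was narrow for Sod1, -0.12 to 0.22 on Con and -0.11 to 0.23 on MR, and for Sod2 it was -0.17 to 0.18 and -0.20 to 0.15.

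**Figure D3:**
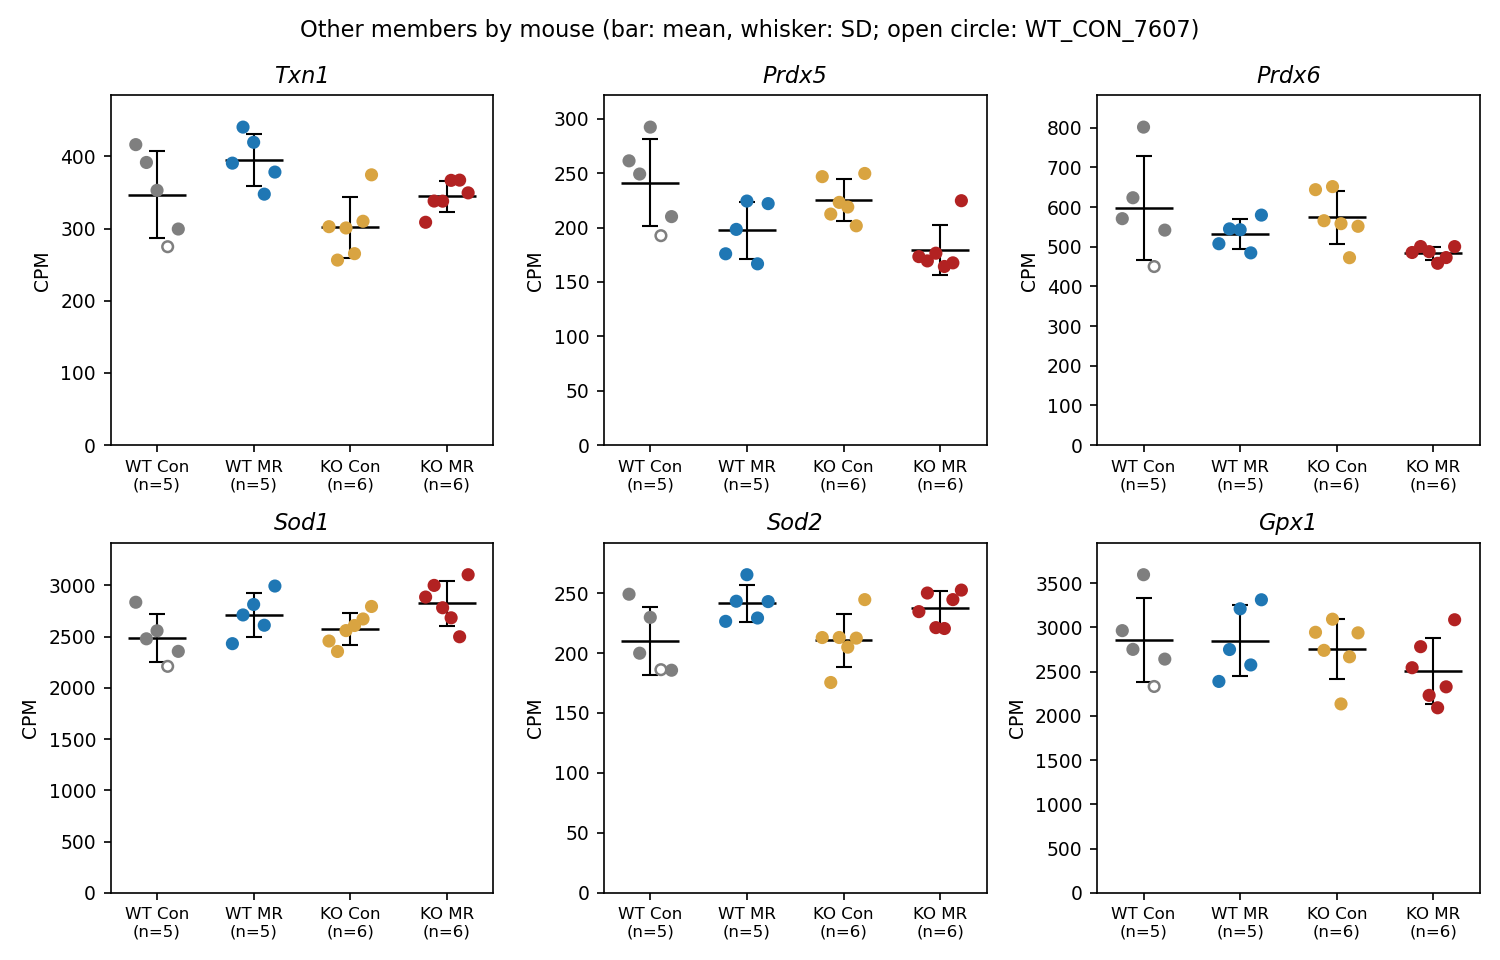
CPM (y axis, from 0) of Txn1, Prdx5, Prdx6, Sod1, Sod2 and Gpx1 in each mouse, by group (x axis), with the group mean as a bar and the SD as a whisker. KO stands for NRF2 KO, and the open circle is the library labelled WT_CON_7607. Groups that differ in diet or genotype alone overlap in each panel, and Prdx5 is the member with a called fall, on MR in NRF2 KO mice.

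The library labelled WT_CON_7607 was the lowest of the 5 WT Con mice in 8 of the 10 members, the exceptions being Prdx1 and Sod2. Without it the members called were Txnrd1 and Srxn1 for genotype on Con and Txnrd1, Srxn1 and Cat for genotype on MR. For MR they were then Txnrd1, Prdx1 and Prdx5 in WT and Srxn1, Prdx5 and Cat in NRF2 KO.

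The left-out mice had by far the highest Srxn1. On the scale of all 24 mice WT_CON_7604 was at 340.4 CPM and WT_MR_7612 at 316.5, against 38.4 to 116.7 in the other 10 WT mice. Txnrd1 was also highest in these mice, at 111.8 and 124.6 CPM against at most 105.6, while their Cat was lower than in each of the other 10 WT mice (1061 and 1036 against 1099 to 2044), as was their Prdx6. With all 24 mice the genotype difference of Txnrd1 was called on both diets and that of Cat on MR. That of Srxn1 was called on Con, at -1.93, but missed the threshold on MR, at -1.62 (edgeR adjusted p = 0.0674), and its rise on MR averaged over genotypes was no longer called (0.44, edgeR adjusted p = 0.315).

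**Figure D4:**
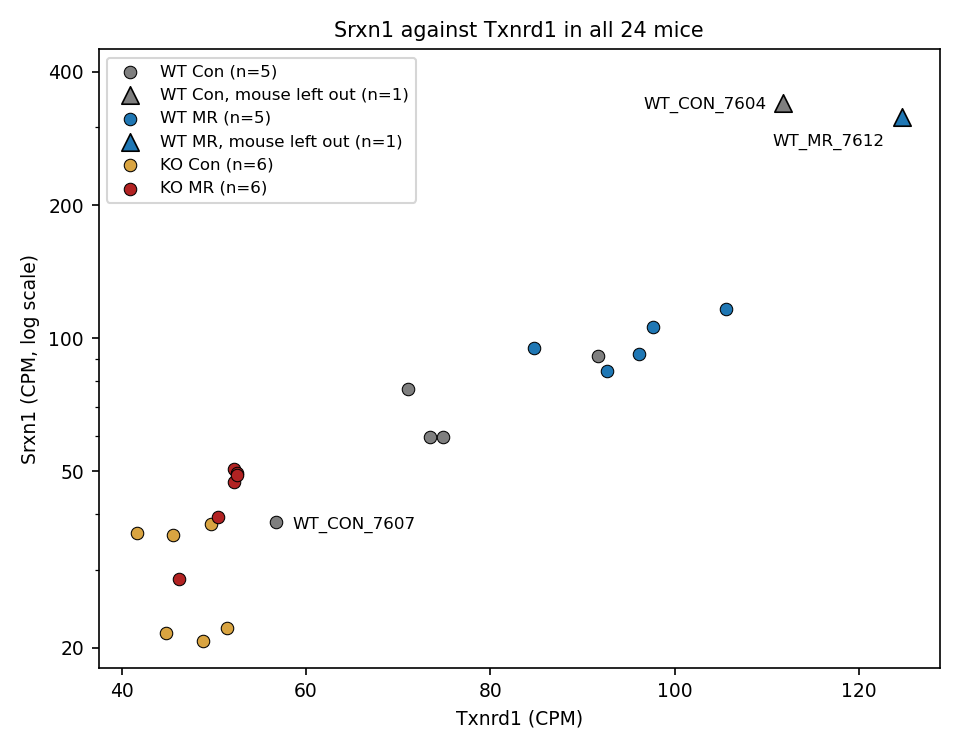
Srxn1 (y axis, CPM, log scale) against Txnrd1 (x axis, CPM) in all 24 mice, 1 point per mouse, coloured by group, with triangles for the mice left out of the comparisons. KO stands for NRF2 KO. NRF2 KO mice lie at the lower left, the WT mice to the right of them, and the left-out mice at the upper right, at 340.4 and 316.5 CPM of Srxn1.

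Within groups some members varied together and a few did not. With the group means taken out of log2 CPM, Pearson's r over the 22 mice was 0.84 for Prdx5 with Cat, 0.81 for Cat with Gpx1, 0.78 for Prdx5 with Gpx1 and 0.75 for Prdx6 with Cat. Sod1 with Sod2 and Txn1 with Sod2 were both at 0.73. Srxn1 stood apart from these, with r between -0.23 and 0.05 with Txn1, Prdx5, Prdx6, Sod1, Sod2, Cat and Gpx1. Between Txnrd1 and Srxn1 r was 0.51 after the group means were removed and 0.90 before. Txnrd1 also had r of 0.435 with Prdx1, 0.365 with Cat and 0.349 with Prdx6. With Txn1, Prdx5, Sod1, Sod2 and Gpx1 its r lay between -0.04 and 0.13. These values describe 22 mice whose genes share a library, its depth and its scaling, and they carry no test. The library labelled WT_CON_7607, the lowest of WT Con for Prdx5, Prdx6, Cat and Gpx1, was included, and r without it was not computed.

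**Figure D5:**
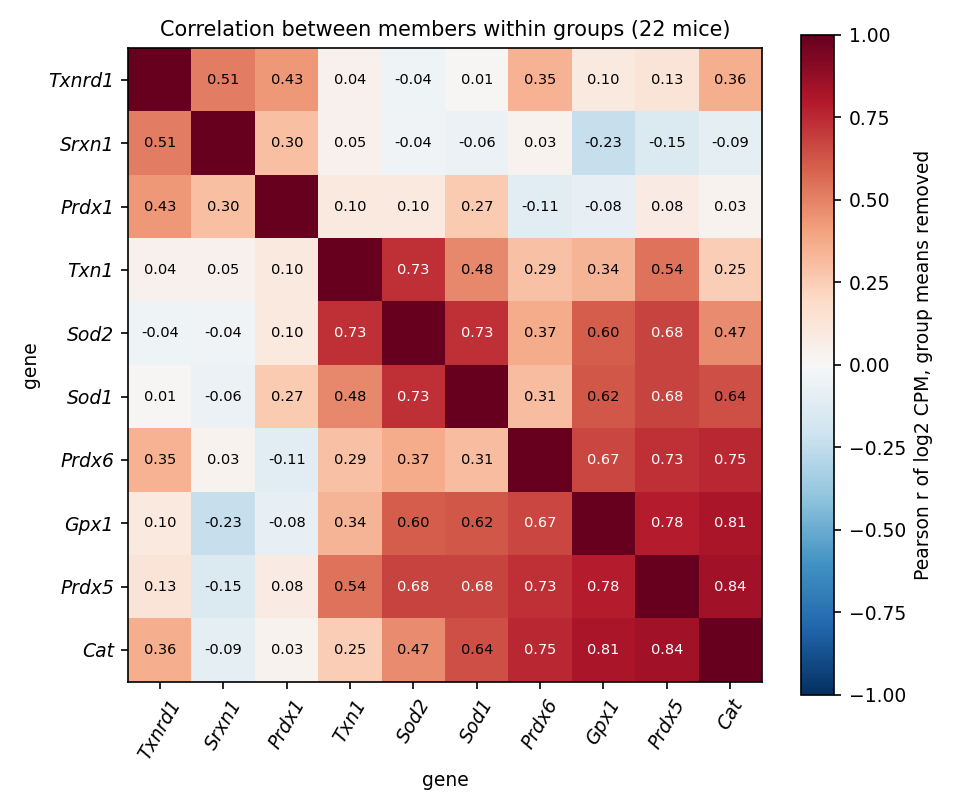
Pearson's r between each pair of members (both axes) over 22 mice after removing group means from log2 CPM, on a colour scale from -1 to 1. Gpx1, Prdx5, Prdx6 and Cat have values of 0.67 to 0.84 with each other, and Prdx5 has 0.68 with Sod1 and with Sod2. Srxn1 and Prdx1 have values near 0 with most of the others.

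The genes whose log2 CPM followed a member most closely over the 22 mice, group differences included and out of 11987 genes, are given as a description. For Txnrd1 they were Ces1b (Pearson's r 0.96, Spearman's rho 0.90), a carboxylesterase, Ugt2b35 (0.96, 0.85), a glucuronosyltransferase, and Gm10639 (0.95, 0.95). For Srxn1 they were Gsta1 (0.94, 0.96) and Gstm4 (0.94, 0.94), glutathione transferases, and Arpp19 (0.94, 0.96), a regulator of a protein phosphatase. For Prdx1 they were Gsr (0.89, 0.91), Pir (0.88, 0.91) and the ribosomal protein gene Rpl23a (0.86, 0.86). Cat was most like Tdo2 (0.94, 0.89), the enzyme that opens the tryptophan ring, Aldh1a1 (0.90, 0.84) and Gm13775 (0.89, 0.89), and Prdx5 was most like Aldh7a1 (0.95, 0.90), Marc1 (0.94, 0.94) and Gstk1 (0.93, 0.92). For Prdx6 they were Hsd17b10 (0.93, 0.90), Azgp1 (0.92, 0.90) and Cyp2d22 (0.92, 0.89), and for Sod2, with the lowest values, they included Eif4a2 (0.83, 0.75) and Coq5 (0.83, 0.82).

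Relatives of the members, 42 genes of the thioredoxin, peroxiredoxin, dismutase, glutathione peroxidase, glutaredoxin and methionine sulfoxide reductase families of which 41 were tested, were called for diet at shares near the background. On MR 3 rose and 4 fell in WT, where 13.8% of all genes were called, and 2 rose and 4 fell in NRF2 KO, where 12.6% were, with median log2 fold changes of 0.06 and 0.03. Gsr, which regenerates glutathione, rose on MR in both genotypes, with WT means of 25.8 ± 2.44 CPM on Con and 40.9 ± 4.03 on MR (log2 0.66, edgeR adjusted p = 0.000169) and NRF2 KO means of 23.5 ± 2.99 and 33.0 ± 4.51 (log2 0.49, edgeR adjusted p = 0.00139). Sod3, the extracellular dismutase, fell in both (log2 -0.56 and -0.31), and Sesn3, a stress-induced sestrin, fell in WT (log2 -0.56). Gpx6, at 0.49 ± 0.21 CPM in WT MR a gene of low level, fell in both (log2 -1.57 and -1.05), the call in NRF2 KO being kept in 12 of 31 alternatives, and Msrb1, a selenoprotein that reduces methionine sulfoxide in proteins, fell in NRF2 KO (log2 -0.37). By genotype edgeR called 0 relatives on Con, where 2.07% of all genes were called, 5 relatives had an unadjusted p under 0.05 and DESeq2 called 2. On MR, where 1.38% of all genes were lower, 2 relatives were lower in NRF2 KO: Msra, a methionine sulfoxide reductase, at 89.5 ± 6.96 against 122 ± 7.29 CPM (log2 -0.45, edgeR adjusted p = 0.00715), and Txnrd3, a thioredoxin reductase (log2 -0.43, edgeR adjusted p = 0.0219), named after its value was seen. With the clock score as a covariate neither was called, and Txnrd3 kept its call in 25 of 32 alternatives. The mitochondrial partners Txn2, Txnrd2 and Prdx3 and the peroxiredoxins Prdx2 and Prdx4 were not called in any comparison of 1 group with another.

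Of 24 genes of selenoproteins and their synthesis, 3 fell on MR in WT, while 2 rose and 2 fell in NRF2 KO, shares again near the 13.8% and 12.6% of all genes called. Dio1, the deiodinase that activates thyroid hormone, fell from 63.6 ± 38.6 to 11.7 ± 2.44 CPM in WT (log2 -2.43, edgeR adjusted p = 0.000251) and from 63.7 ± 9.94 to 21.1 ± 8.26 in NRF2 KO (log2 -1.60, edgeR adjusted p = 0.00262). Selenos, a protein of the endoplasmic reticulum, rose in NRF2 KO (log2 0.62), as did Sepsecs, which makes selenocysteine on its tRNA (log2 0.46), and Selenon fell in WT (log2 -0.94, kept in 23 of 31 alternatives). Sephs1 was called for MR averaged over genotypes (log2 0.24). Selenos was lower in NRF2 KO on Con (log2 -0.40, edgeR adjusted p = 0.0469), a call that 22 of 32 alternatives did not keep.

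Among 16 tested oxidases that make hydrogen peroxide, Hao1, the glycolate oxidase of peroxisomes, fell on MR in both genotypes, with 206 ± 34.7 CPM on Con and 116 ± 10.5 on MR in WT, against 241 ± 25.1 and 122 ± 23.1 in NRF2 KO (log2 -0.83 and -0.98, edgeR adjusted p = 9.14e-05 and 4.84e-06). Aox1, an aldehyde oxidase, had the largest genotype difference of this list, with 34.0 ± 18.5 CPM in WT Con against 8.98 ± 1.49 in NRF2 KO Con, and 72.9 ± 8.68 in WT MR against 15.9 ± 1.85 in NRF2 KO MR (log2 -1.93 and -2.20, edgeR adjusted p = 0.000821 and 5.95e-05). Aox3 was lower in NRF2 KO on both diets (log2 -1.23 and -1.21). Acox2, a peroxisomal acyl-CoA oxidase, rose on MR in WT (log2 0.45) and was lower in NRF2 KO on MR (log2 -0.52). On MR the genotype call of Aox1 was kept with the clock score as a covariate, and those of Aox3 and Acox2 were not. Ero1l, the oxidase of the endoplasmic reticulum, rose on MR in WT (log2 0.35, kept in 24 of 32 alternatives) and in NRF2 KO (log2 0.58), and Pipox, which oxidizes pipecolic acid and sarcosine, was called for MR averaged over genotypes (log2 -0.36).

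Other NRF2 target genes had larger median differences by genotype than the members, which was not tested. Of 35 listed, Nfe2l2 itself included, 14 were lower in NRF2 KO on Con and 23 on MR, where 1.27% and 1.38% of all genes were lower. The 1 higher on both diets was Nfe2l2, whose call on Con was kept in 8 of 32 alternatives. The median log2 fold change of the list was -0.43 on Con and -1.10 on MR. On MR 24 of the 35 rose in WT, where 6.91% of all genes rose. In NRF2 KO 17 were called, 16 of them higher, where 12.6% of all genes were called in either direction. The medians were 0.99 and 0.49, and Taldo1, named after its value was seen, fell in NRF2 KO. Gstm1, a glutathione transferase, was at 1229 ± 608, 3962 ± 166, 282 ± 46.3 and 606.5 ± 64.6 CPM in WT mice on Con and MR and in NRF2 KO mice on Con and MR. It rose on MR in NRF2 KO too (log2 1.10, edgeR adjusted p = 0.00262), and so did Gstm4, Ephx1, Blvrb and Htatip2 (log2 1.21, 0.93, 0.56 and 0.92). For the transporter gene Abcc4 the response itself differed, with a log2 rise of 3.22 in WT, 0.62 in NRF2 KO and an interaction of -2.60, the only gene of this list called in that test by edgeR, where DESeq2 called 2.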

How the data were processed

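Liver RNA of 24 male mice was measured by QuantSeq 3′ sequencing, 1 library per mouse. Per the labels and the study's methods, reads were mapped and counted by the kit maker's commercial pipeline, with GRCm38 (mm10) as build and an aligner not given in the sources used here. The raw read counts per gene deposited by the authors were used first. The normalized signal deposited by the authors is the same counts over 1 DESeq2 size factor per mouse (their processing notes name DESeq2 1.18.1 and R 3.4.3), with a largest relative deviation of 5e-15 over 24 mice. It served as an alternative on a log2 scale with a pseudocount of 1. Counts were analysed with edgeR 4.0.16 in R 4.3.3 by TMM scaling, the filter by expression, robust dispersions and robust quasi-likelihood F-tests, with a mean for each of 4 groups over 22 mice. The filter kept 13336 of 15160 genes. Calls needed an adjusted p (Benjamini-Hochberg, over all of them) under 0.05, in 7 comparisons: MR against Con in each genotype, NRF2 KO against WT on each diet, their interaction, and the averages of each effect. Log2 CPM used a prior count of 2, and intervals are 95% intervals of the model.

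Alternatives were all 24 mice, with and without limma 3.58.1 sample quality weights, DESeq2 size factors, library size only, no filter, at least 10 counts in every mouse, DESeq2 1.42.0, limma on the normalized signal, only the groups compared, a clock score as covariate and each of 22 mice left out in turn. On simulated counts of 13154 genes with 198 changed by genotype, the model recovered 149 on Con with 9 false calls and 157 on MR with 10. Only genotype changes were simulated, so recovery of diet differences, or of changes smaller than those simulated, was not measured. The members, lists, comparisons and alternatives were chosen with earlier results of these data known. All members are named. Of the lists, genes called in at least 1 comparison at a mean of at least 1 CPM are named, at most 6 per list by smallest adjusted p, and others are marked as named after their values were seen. Among genes with a pattern like a member's, 1 is not reported here. Depth ran from 6197291 to 22068338 counts, each mouse is 1 replicate, and errors are SDs between mice. The labels give no batch, and whether the counting used strand is not given in the sources used here. The last 300 bases of each member's transcripts were compared with all others by BLAST 2.17.0 for stretches of at least 50 bases at 95% identity, with GENCODE M21 for positions and symbols. Promoters came from a RefSeq table. Python 3.11.15 with matplotlib 3.10.9 drew the figures. The energy, serum and qPCR data of the study were not analysed here.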

Additional observations from a re-analysis of the deposited data

Results flagged for a closer look

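Among 40 combinations of member and group, 3 held a mouse farther from the rest than Dixon's 95% limit for its group allows, where chance gives about 1 in 20. All 3 were NRF2 KO MR mice. KO_MR_7632 had the lowest Txnrd1 of its group, 46.0 CPM against 50.0 to 52.1 in the other 5, and the highest Prdx5, 225 CPM against 164 to 176. KO_MR_7629 had the highest Prdx1, 1307 CPM against 1000.1 to 1107. Without KO_MR_7632 the fall of Prdx5 on MR in NRF2 KO mice was -0.40 in place of -0.33 (log2).

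The mice left out of the comparisons carried some members above all 5 WT Con mice. Srxn1 stood at 340.4 CPM in WT_CON_7604 and 316.5 in WT_MR_7612, which is 2.92 and 2.71 times the highest of the other 10 WT mice. Txnrd1 stood at 111.8 and 124.6 CPM, against a highest value of 105.6 in those mice. Prdx1 was at 1235 CPM in WT_MR_7612, above the WT Con maximum of 1188 and below the WT maximum of 1472.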

How the results depend on the processing

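Members called for genotype were Txnrd1 and Srxn1 on Con in every alternative but the clock score, and in all 22 fits that left out 1 mouse. Txnrd1 was called for genotype on MR in every alternative. Counts of members called moved as follows. With all 24 mice 1 was called for MR in WT (Prdx1) and 1 for MR in NRF2 KO (Cat). With library size as the only scaling 6 were called in WT, all higher, and 7 in NRF2 KO, Cat lower and the others higher, a scaling that lost the calls of Prdx5 in NRF2 KO (-0.178, edgeR adjusted p = 0.0929) and Prdx6 averaged over genotypes (-0.0715, edgeR adjusted p = 0.355) and under which the median of all genes rose to 0.0866 and 0.152 (log2). With the clock score as covariate the MR comparisons each had 1 member called (Prdx1 in WT, Cat in NRF2 KO), genotype on Con had 0 (0.323 and 0.247 being the edgeR adjusted p of Srxn1 and Txnrd1), and genotype on MR and genotype averaged over diets each had 1, Txnrd1. Leaving out 1 mouse gave 1 to 4 for MR in NRF2 KO, 1 without KO_CON_7617, KO_CON_7620, KO_CON_7623, KO_MR_7625, KO_MR_7627, KO_MR_7628, KO_MR_7629 or KO_MR_7631 (Cat alone) and 4 without KO_CON_7622. For MR averaged over genotypes DESeq2 called 8 members.

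Values near 0 that were not called changed sign under some settings, as follows on the log2 scale, and the cause was not tested. With all 24 mice genotype on Con was 0.0242 for Prdx6 and 0.0163 for Cat, genotype on MR 0.0193 for Sod2 and the interaction 0.313 for Srxn1, and with sample quality weights these were 0.0618 for Prdx6, 0.0434 for Cat and 0.129 for Srxn1. With library size only MR in WT was 0.0992 for Gpx1, genotype -0.0151 on Con and 0.0084 on MR for Sod2, and the interaction 0.0611 for Srxn1. Genotype on Con for Sod2 was -0.000129 with DESeq2 size factors and -0.00211 with at least 10 counts in every mouse, where the interaction of Srxn1 was 0.00422. MR in WT for Gpx1 was 0.00167 in limma on the normalized signal and 0.0114 with the clock score. With the clock score genotype on Con was 0.112 for Txn1, 0.0169 for Prdx1, 0.095 for Prdx5 and 0.174 for Cat, and genotype on MR 0.0963 for Sod2. Leaving out 1 mouse gave ranges of -0.0665 to 0.0895 for Gpx1 and MR in WT, -0.144 to 0.0635 for Prdx6, -0.0441 to 0.063 for Sod2, -0.148 to 0.0143 for Cat and -0.118 to 0.0359 for Gpx1 by genotype on Con, -0.0482 to 0.00727 for Sod2 by genotype on MR, and -0.165 to 0.129 for the interaction of Srxn1.

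No paired analysis was possible because each mouse has a number of its own and the groups share none. The 5 or 6 mice a group and the spread between them set the width of the intervals given.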
